A study of Homo sapiens with 12 samples.

Results

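Glycolysis genes were described across all libraries of the series. They were 10 genes of the 35638 listed in any of the tables, chosen by name as the usual enzymes of the pathway: HK2, GPI, ALDOA, TPI1, GAPDH, PGK1, PGAM1, ENO1, PKM and LDHA. The rule uses no measured value, although earlier results of these data were known when the genes were chosen, and each gene matched 1 Ensembl identifier. The series compared LAST-seq, an assay that amplifies RNA of single cells linearly by in vitro transcription, with CEL-seq2 and SMART-seq in HEK293T cells, and then applied LAST-seq to eHAP1 cells without and with a knockout of SCC4.

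HEK293T is a human embryonic kidney line, grown here in high-glucose medium and sorted as live cells. It was profiled as single cells by LAST-seq (2 libraries of 10 cells), CEL-seq2 (2 libraries of 10 cells) and SMART-seq (6 cells), as single-cell lysate by LAST-seq, CEL-seq2 (10 wells each) and SMART-seq (libraries of 10 and 16 wells), and as aliquots of 15 pg of total RNA by LAST-seq (10 wells). The replicates carried different spike-in mixes, A60 and ERCC in LAST-seq, and both mixes and ERCC alone in CEL-seq2, so replicate and mix cannot be told apart. eHAP1 is a haploid human line of leukaemia origin, grown in IMDM medium, and its cells were sorted as haploid cells in the G1 phase. Upon subcloning, the methods name culture with 10-deacetylbaccatin-III to keep the cells haploid. The WT group held 148 eHAP1 cells in batches of 73 and 75, and the SCC4 KO group held 153 cells in batches of 77 and 76. The knockout was made with CRISPR/Cas9, and KO cells were grown as clones from single cells. The number of clones behind the KO batches is not given. The paper also describes the eHAP1 cells it sorted as coming from a population expanded from 1 cell. LAST-seq and CEL-seq2 count unique molecular identifiers (UMIs) near the 3′ end of transcripts, whereas SMART-seq counts reads along the whole transcript.

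Glycolysis turns glucose into pyruvate in the cytosol and yields ATP and NADH. HK2 traps glucose as its phosphate, GPI and ALDOA rearrange and split the sugar, TPI1 interconverts the resulting trioses, GAPDH and PGK1 oxidise them and make the first ATP, PGAM1 and ENO1 prepare phosphoenolpyruvate, PKM makes the second ATP and pyruvate, and LDHA reduces pyruvate to lactate. Proliferating cultured cells are known to use the pathway heavily, and the transcription factors HIF1A and MYC are known to bind near several of these genes. Because of their high levels, GAPDH and PGK1 are often used as reference genes.

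The genes lie on 9 chromosomes (GRCh38). GAPDH (chr12:6534512-6538374) and TPI1 (chr12:6867119-6870948) are both on the short arm of chromosome 12. The others are PGK1 (chrX:77910739-78129295), LDHA (chr11:18394560-18408425), ALDOA (chr16:30064164-30070457), GPI (chr19:34359480-34402413), PGAM1 (chr10:97426191-97433444) and HK2 (chr2:74834127-74893359) on the plus strand, and ENO1 (chr1:8861000-8879190) and PKM (chr15:72199029-72231819) on the minus strand. The promoters of PGK1 and LDHA are shown because PGK1 differed most between the cell lines and LDHA had the largest ratio between SCC4 KO and WT cells. Each sequence runs from 250 bases before to 50 bases after the RefSeq start (GRCh38.p14, chrX:78103998-78104297 and chr11:18394313-18394612, both on the plus strand), with the hypoxia response core ACGTG or GCGTG in capitals on either strand, where the minus strand reads CACGT or CACGC.
PGK1: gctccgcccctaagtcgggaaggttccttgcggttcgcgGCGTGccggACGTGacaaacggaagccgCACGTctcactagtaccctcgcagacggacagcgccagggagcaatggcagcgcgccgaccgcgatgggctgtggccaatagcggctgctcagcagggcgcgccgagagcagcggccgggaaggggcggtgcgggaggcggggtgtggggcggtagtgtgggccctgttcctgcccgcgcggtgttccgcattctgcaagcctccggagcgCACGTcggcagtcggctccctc
LDHA: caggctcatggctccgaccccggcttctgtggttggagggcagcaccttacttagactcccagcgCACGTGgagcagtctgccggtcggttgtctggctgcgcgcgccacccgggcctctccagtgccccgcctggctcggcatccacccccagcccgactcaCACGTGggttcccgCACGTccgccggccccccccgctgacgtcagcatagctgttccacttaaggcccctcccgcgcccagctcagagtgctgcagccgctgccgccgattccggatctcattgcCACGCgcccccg
The core occurred 4 times in the PGK1 promoter and 6 times in the LDHA promoter, where overlapping matches on the 2 strands count separately. At least 1 match was found in 8 of the 10 promoters, against 48.4% of the 27305 promoters of the same length. The E-box CACGTG, which holds the core on both strands, was found in LDHA and GAPDH, against 7.43% of all promoters. The GC-box GGGCGG was found in 7 of the 10, against 44.6% of all promoters. TATAAA was found in none of the 10 and in 12% of all promoters. Only the window at the listed RefSeq start of a gene was searched. Several of these windows lay inside the gene bounds given above, such as those of GAPDH (chr12:6535014-6535313) and PGAM1 (chr10:97427568-97427867). Sequence at other starts of these genes was not searched. These matches are descriptions of letters and no binding sites.

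The 3′ ends are where LAST-seq and CEL-seq2 count. The last 30 bases of the main annotated transcripts of GAPDH (chr12:6538342-6538371, plus strand), ALDOA (chr16:30070385-30070414, plus strand) and ENO1 (chr1:8861000-8861029, minus strand) are given because GAPDH and ALDOA were lower in these assays than in SMART-seq and ENO1 was the most abundant member, with the polyadenylation hexamer AATAAA in capitals.
GAPDH: accatcAATAAAgtaccctgtgctcaacca
ALDOA: actgccaAATAAAcagctatttaaggggga
ENO1: AATAAAaagcctcagtgacccatgagaata
All 3 carry the hexamer close to their end. Of the last 500 bases of the GAPDH transcript, 422 overlap exons of a long non-coding RNA on the opposite strand (ENSG00000269968), and all 500 bases of ALDOA overlap exons of another gene on the same strand (ENSG00000285043). For TPI1, 14 bases overlap SPSB2 on the opposite strand, and the remaining members have no such overlap.

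Depth differed between the experiments. HEK293T cells held between 82596 and 190557 UMIs in LAST-seq and between 80558 and 195438 UMIs in CEL-seq2, the SMART-seq cells held between 812582 and 818780 reads, and eHAP1 cells held between 18022 and 926415 UMIs. SDs over wells describe the cells or aliquots of 1 library, and p-values between libraries measure the spread between libraries, which may be technical. Libraries of 1 assay reused their well barcodes, all 10 of them between the LAST-seq HEK293T replicates and 70 between the eHAP1 WT batches, so shared barcodes name plate positions and not shared cells. Levels are given as CPM for UMIs and RPM for reads, the counts of a gene scaled to a common total of 1000000 on all genes of a cell or library, without spike-ins.

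To ask how an abundant pathway is seen by each assay, the levels of its members were compared. Together the 10 genes took 0.65% and 0.67% of the UMIs of the LAST-seq HEK293T replicates, 0.37% and 0.45% in CEL-seq2 and 1.45% of the SMART-seq reads. In lysate the UMI assays were close, at 0.556% in LAST-seq and 0.561% in CEL-seq2, with 1 library each. ENO1 was the highest member in the UMI assays. In LAST-seq cells of replicate 1 it ranged from 2597 to 3096 CPM with a median of 2888, and in replicate 2 from 2769 to 3523 with a median of 3040. In CEL-seq2 it ranged from 519.7 to 2149 with a median of 1142 in replicate 1, and from 508.9 to 2166 with a median of 1732 in replicate 2. No LAST-seq cell fell as low as the highest CEL-seq2 cell.

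**Figure D1:**
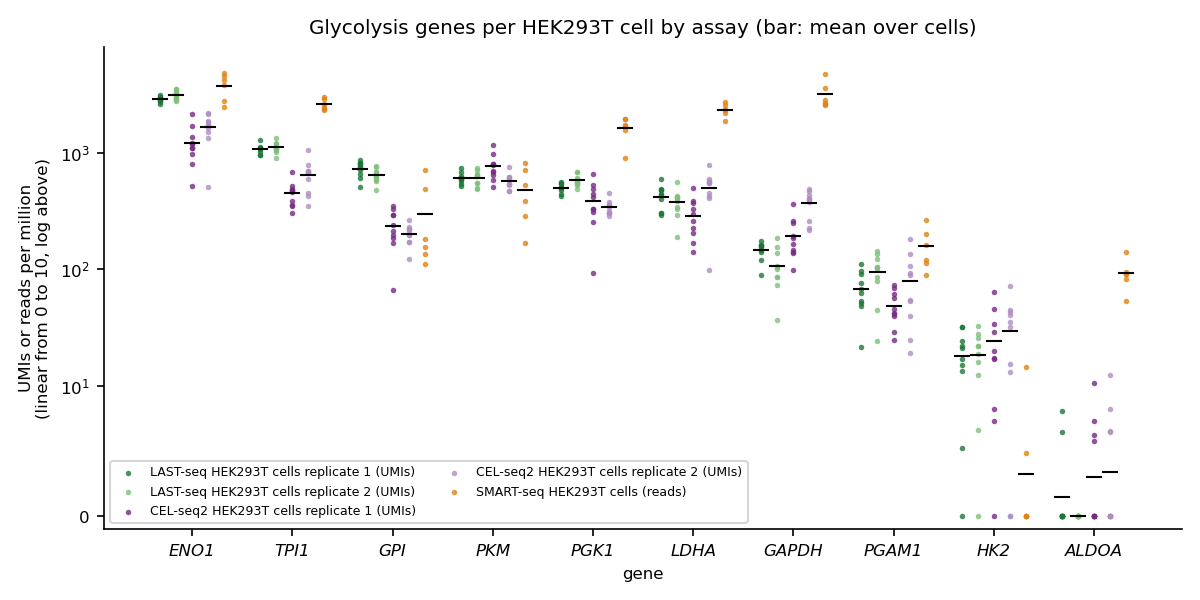
Level of each glycolysis gene in single HEK293T cells, in CPM for LAST-seq and CEL-seq2 and in RPM for SMART-seq, where a point is a cell and a bar the mean over cells. GAPDH lies at 88.7 to 174 CPM in LAST-seq replicate 1 but at 2546 to 4697 RPM in SMART-seq, and ALDOA is close to 0 in the UMI assays.

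TPI1 came next in LAST-seq, with a mean of 1068 ± 94.8 CPM (SD, n = 10 cells) in replicate 1 and 1111 ± 121 in replicate 2. In CEL-seq2 its means were 448 ± 109 and 638 ± 204. GPI stood at 730 ± 111 and 637 ± 86.6 in LAST-seq, whereas CEL-seq2 gave 233 ± 85.1 and 200.4 ± 38.6. PKM, at 605 ± 64.6 and 607 ± 84.0 in LAST-seq, was within the range of CEL-seq2, at 761 ± 192 and 571 ± 84.2. PGK1 reached 499.6 ± 44.2 and 577 ± 63.1 in LAST-seq, against CEL-seq2 means of 385 ± 157 and 339.6 ± 49.5. The LDHA means were 419.8 ± 97.5 and 376 ± 98.2 by LAST-seq, with 289 ± 110.3 and 499 ± 175 by CEL-seq2, so the CEL-seq2 libraries lay on either side of the LAST-seq ones. PGAM1 and HK2 were low throughout, at 68.1 ± 26.4 and 18.3 ± 10.5 CPM in LAST-seq replicate 1. HK2 was detected in 9 of 10 cells of each LAST-seq replicate.

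The order of the members in LAST-seq was ENO1, TPI1, GPI, PKM, PGK1, LDHA, GAPDH, PGAM1, HK2 and ALDOA. The library means of GPI and PKM, at 692 ± 68.8 and 606 ± 0.206 (SD, n = 2 libraries), and of PKM and PGK1, at 539 ± 57.5, were the neighbours among the abundant members that lay closest. The 15-pg RNA and lysate libraries kept ENO1 and TPI1 at the top, with ENO1 at 2948 and 2406 CPM, while PKM ranked before GPI and PGK1 in both. PKM reached 865 CPM in the 15-pg RNA, against 589 in the lysate. The 2 SMART-seq lysate libraries gave the same top members as the SMART-seq cells, with ENO1 at 4070 ± 190 RPM (SD, n = 2 libraries), GAPDH at 3134 ± 247 and TPI1 at 2679 ± 178. The 6 SMART-seq cells matched 6 of the 16 wells of the second lysate library within the noise of sampling (mean chi-square per gene from 0.940 to 1.0, against at least 11.5 for the 487 pairs of wells not near-identical), so these 2 sets are not independent, and 3 pairs of wells in the first lysate library agreed in the same way. Without those wells, GAPDH in the second lysate library was at 2825 ± 160 RPM (SD, n = 10 wells), against 2953 ± 541 with them.

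GAPDH, commonly taken as a highly expressed reference gene, was lower in both UMI assays than in SMART-seq. It held rank 14 of all genes in SMART-seq cells, at 3153 ± 849 RPM (SD, n = 6 cells). In LAST-seq it held ranks 1040 and 1441, with between 88.7 and 174 CPM in replicate 1 (median 153) and between 37.1 and 187 in replicate 2 (median 103). In CEL-seq2 it ranged from 98.3 to 360 in replicate 1 (median 175) and from 219 to 485 in replicate 2 (median 396). In lysate GAPDH was at 165 ± 56.7 CPM in LAST-seq and at 715 ± 161 CPM (SD, n = 10 wells) in CEL-seq2, where it held rank 206, so the CEL-seq2 lysate lay above every CEL-seq2 and LAST-seq cell. ALDOA was nearly absent. LAST-seq counted 2 UMIs of ALDOA in the 20 cells and CEL-seq2 counted 8, while the 6 SMART-seq cells held 453 reads, between 53.8 and 142 RPM. No UMI of ALDOA was found in the 15-pg RNA, of 1108884 UMIs, nor in either lysate library of the UMI assays.

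SMART-seq reads were divided by the total exon length of each gene and rescaled to a common total, so that levels could be set against UMIs. GAPDH was then at 2830 in SMART-seq and at 129 CPM in LAST-seq, a log2 ratio of -4.45 with 1 added to both values. ALDOA was at 51.9 and 0.702, with a log2 ratio of -4.96. The median log2 ratio over the 1899 protein-coding genes with at least 50 in SMART-seq was -0.70, and 3.0% of them had a ratio below that of GAPDH. The other members lay between -1.02 for LDHA and 3.51 for GPI. Exon length pools all annotated transcripts, which lowers the SMART-seq value of genes with long unused exons. In CEL-seq2 the log2 ratios were -3.37 for GAPDH and -3.85 for ALDOA, so both genes were lower against SMART-seq in the cells of both UMI assays.

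The overlap of the 3′ ends with other genes was set beside the levels. The median log2 ratio of LAST-seq to SMART-seq was -0.65 over genes without overlap, -1.71 over genes with at least 400 bases overlapped on the opposite strand, as for GAPDH, and -0.67 over those with such an overlap on the same strand, as for ALDOA, so the same-strand genes were not lower by this measure. Of the 1582 genes whose last 500 bases overlap no other gene, 1.64% were below 5 CPM in LAST-seq. The share was 31.2% of the 64 genes overlapped on the opposite strand and 15.8% of the 19 genes overlapped on the same strand, ALDOA among them, whereas GAPDH was not below 5. In CEL-seq2 the shares were 0.632%, 17.2% and 10.5%. The part of the overlap in the values of GAPDH and ALDOA was not tested, and the strand setting used in counting is not given in the sources used here.

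**Figure D2:**
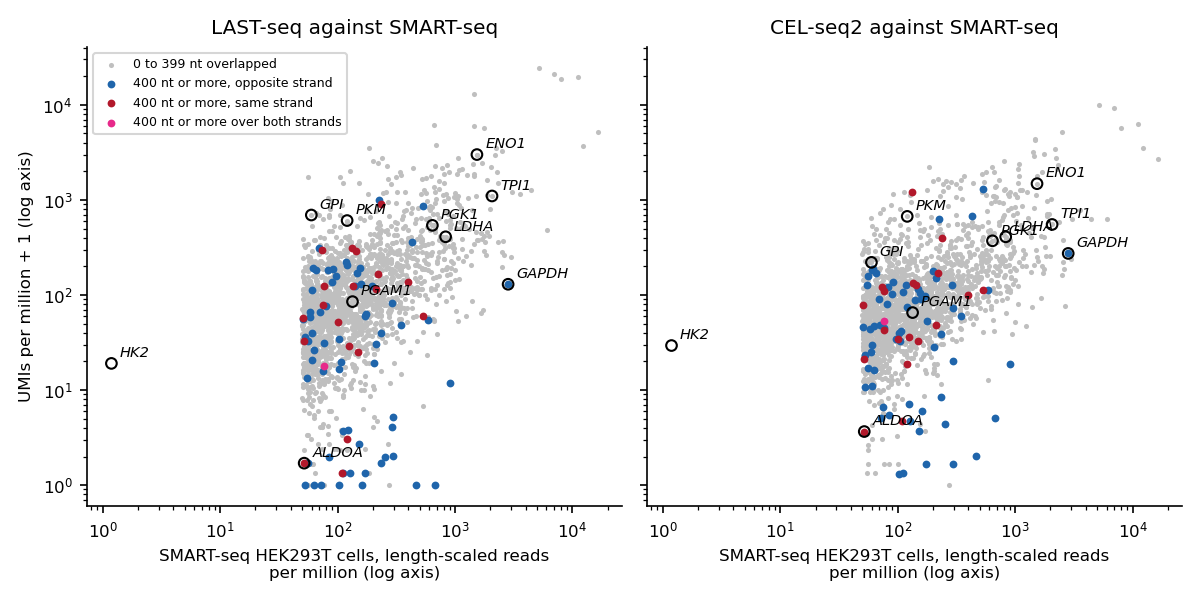
Level in LAST-seq (left) and CEL-seq2 (right) HEK293T cells, as CPM with 1 added, against the length-scaled SMART-seq level, both on log axes, for 1899 protein-coding genes with at least 50 in SMART-seq, coloured by the overlap of the last 500 bases of their main transcript with other genes, and for the glycolysis genes (circles). GAPDH and ALDOA lie 4.45 and 4.96 log2 units below equal levels in LAST-seq, and HK2, at 1.19 in SMART-seq, is below the minimum of the other genes.

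Processed pseudogenes could take part of the counts of several members. GENCODE lists 65 pseudogenes named after GAPDH. They held 24.1% and 19.6% of the UMIs on GAPDH and its pseudogenes in the LAST-seq replicates and 24.5% and 46.5% in the CEL-seq2 replicates, with GAPDHP40 leading in LAST-seq and GAPDHP35 in CEL-seq2. In SMART-seq cells the share was 14.4%. It was 42.2% and 39.2% in the eHAP1 WT batches and 33.7% and 35.6% in the SCC4 KO batches. Of the runs of 50 bases in the last 500 bases of the transcript, 89.8% of those of PGAM1 occur in more than 1 place of the genome. The share was 30.4% for GPI, 29.7% for PGK1, 24.4% for TPI1, 21.1% for GAPDH and 17.7% for HK2. It was 8.43% for PKM, 2.66% for ENO1 and none for LDHA and ALDOA, so the counts of PGAM1 are the least certain by sequence. PGAM1 shared its counts with PGAM4, a copy without introns, and held 93.6% (exact 95% interval 87.2 to 97.4, counting error only) and 85.4% (79.2 to 90.3) of the UMIs on the pair in LAST-seq, 62.8% and 86.6% in CEL-seq2 and 60.6% of the reads (57.9 to 63.3) in SMART-seq.

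The LAST-seq and CEL-seq2 HEK293T libraries were compared with edgeR's quasi-likelihood test on UMIs summed per library, 2 against 2, with the Benjamini-Hochberg adjustment over all 11271 genes tested. ALDOA was too low to be tested. Of the 9 members tested, 4 were called at an FDR of 0.05, where 26.2% of all genes were called, and all 4 were higher in LAST-seq, where 11.3% of all genes were called in that direction. GPI was higher by 1.98 ± 0.29 on the log2 scale (SE, adjusted p = 0.00226), ENO1 by 1.31 ± 0.34 (adjusted p = 0.0203), TPI1 by 1.29 ± 0.33 (adjusted p = 0.0195) and PGK1 by 0.86 ± 0.28 (adjusted p = 0.0461). GAPDH differed by -0.80 ± 0.39, PGAM1 by 0.68 ± 0.37, HK2 by -0.35 ± 0.48, LDHA by 0.29 ± 0.36 and PKM by 0.19 ± 0.28, with adjusted p from 0.163 to 0.671. The median over the 9 members was 0.68, against -0.05 over all genes tested. In lysate, with 1 library an assay and no test, ENO1 was at 2407 ± 283 CPM (SD, n = 10 wells) in LAST-seq and 1862 ± 200 in CEL-seq2. GPI was at 495 ± 94.6 and 258 ± 119, PGK1 at 542 ± 100.1 and 369.7 ± 73.0 and TPI1 at 882 ± 148 and 823 ± 105. For all 4 genes the ranges of the wells overlapped between the assays. Without either LAST-seq library only GPI was still called, and with scaling to total UMIs PGK1 was not called and GAPDH was called as lower in LAST-seq by 1.11. Without CEL-seq2 replicate 1 GAPDH was also called, at -1.26, and without CEL-seq2 replicate 2 LDHA and PGAM1 were, at 0.88 and 1.20. Scaling to total UMIs moved the median of all genes by -0.35 and their split from 1276 higher and 1673 lower to 740 higher and 2286 lower.

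The isozymes of the members were unequally seen by the assays. LDHB, which encodes the H subunit of lactate dehydrogenase, was at 1879 and 1894 CPM in LAST-seq, where CEL-seq2 gave 627 and 749, and was higher in LAST-seq by 1.76 ± 0.32 (adjusted p = 0.00507). LDHA therefore held 18.8% and 16.7% of the UMIs on LDHA and LDHB in LAST-seq, 32.3% and 40.8% in CEL-seq2, and 67.7% of the reads in SMART-seq cells, where reads are not scaled by length. PFKM, the muscle type of phosphofructokinase, was higher in LAST-seq by 3.64 ± 0.37 (adjusted p = 0.000460), PFKL by 1.71 ± 0.38, and HK1, the ubiquitous hexokinase, was lower by 1.09 ± 0.32. Among the 20 isozymes and remaining enzymes, 9 were tested, 3 were called as higher and 1 as lower in LAST-seq. Of the 9 glucose and lactate transporters 6 were tested and 1 was called: SLC16A1, the lactate carrier MCT1, was lower in LAST-seq by 1.59 ± 0.28. HK3, GAPDHS, PGK2, PGAM2 and PKLR, which serve other tissues, had no UMI in LAST-seq HEK293T cells. None of the 3 enzymes of fructose-2,6-bisphosphate and none of the 3 genes of gluconeogenesis tested were called. In the pentose phosphate pathway 1 of 7 was called, TKT (transketolase), higher in LAST-seq by 1.45 ± 0.29. Of 10 genes of pyruvate entry into mitochondria, DLD was higher by 1.09 ± 0.28 and PDK1, a kinase that inhibits pyruvate dehydrogenase, was lower by 2.03 ± 0.38. Of 15 genes of the hypoxia response, HIF1A was higher by 1.05 ± 0.30, and VHL and HILPDA were lower by 4.76 ± 0.63 and 2.14 ± 0.53. Of 7 regulators, HIF1A again and MAX, the partner of MYC, were higher, MAX by 1.11 ± 0.36, and TXNIP was lower by 2.13 ± 0.61.

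Cell-to-cell noise was taken as the coefficient of variation (CV) over cells, after scaling each cell to the median total, and as the excess CV2, which is the squared CV beyond that of Poisson counting. In LAST-seq HEK293T cells the 9 members with a mean of at least 1 UMI had a median CV of 0.153 and 0.138 in the 2 replicates. Their median excess CV2 was -0.000175 and 0.00778, beside 0.00497 and 0.00356 over all genes with such a mean. ENO1 had a CV of 0.0494 and 0.0900, TPI1 of 0.0888 and 0.109, and PGK1 of 0.0885 and 0.109. LDHA was the most variable of the abundant members, with an excess CV2 of 0.0367 and 0.0503. GAPDH varied little in replicate 1 and more in replicate 2, with excess CV2 of -0.0232 and 0.0978.

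Aliquots of 15-pg RNA hold no differences between cells, and their spread gives the background of the assay. For the lysate wells, the sources used here do not state whether the lysate of cells was pooled before it was divided. The median excess CV2 of the members was 0.00526 over the 10 wells of 15-pg RNA and 0.0113 over the lysate wells, each over 8 members. In CEL-seq2 cells it was 0.121 and 0.0794, beside 0.135 and 0.152 over all genes, and in the CEL-seq2 lysate it was 0.0133. In SMART-seq, which counts reads without UMIs, ENO1 had an excess CV2 of 0.0634 and GAPDH of 0.0721 over 6 cells. With 10 wells or fewer per library these values carry a wide error, and no test was made between cells and the RNA or lysate wells.

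In eHAP1 WT cells the median CV of the members was 0.187 in batch 1 and 0.150 in batch 2, and in SCC4 KO cells 0.151 and 0.113. The median excess CV2 was 0.00219 and 0.00328 in WT and 0.00339 and 0.00373 in KO cells. All genes with at least 1 UMI, which were not matched to the members in mean, had medians of 0.0360 and 0.0656 in WT and 0.0626 and 0.0339 in KO. Set against genes within 1.25-fold of its mean in the same batch, ENO1 was above 20% of them in WT batch 1 and above 50% in WT batch 2, and LDHA was above 15.5% and 52.2%. HK2, with a mean of a few UMIs, had an excess CV2 of 0.434 and 0.0100 in WT and of 0.663 and 0.105 in KO cells. A batch adjustment is named in the methods for the eHAP1 cells, and the sources do not give whether the deposited UMIs carry it, so these values hold for the table as deposited.

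**Figure D3:**
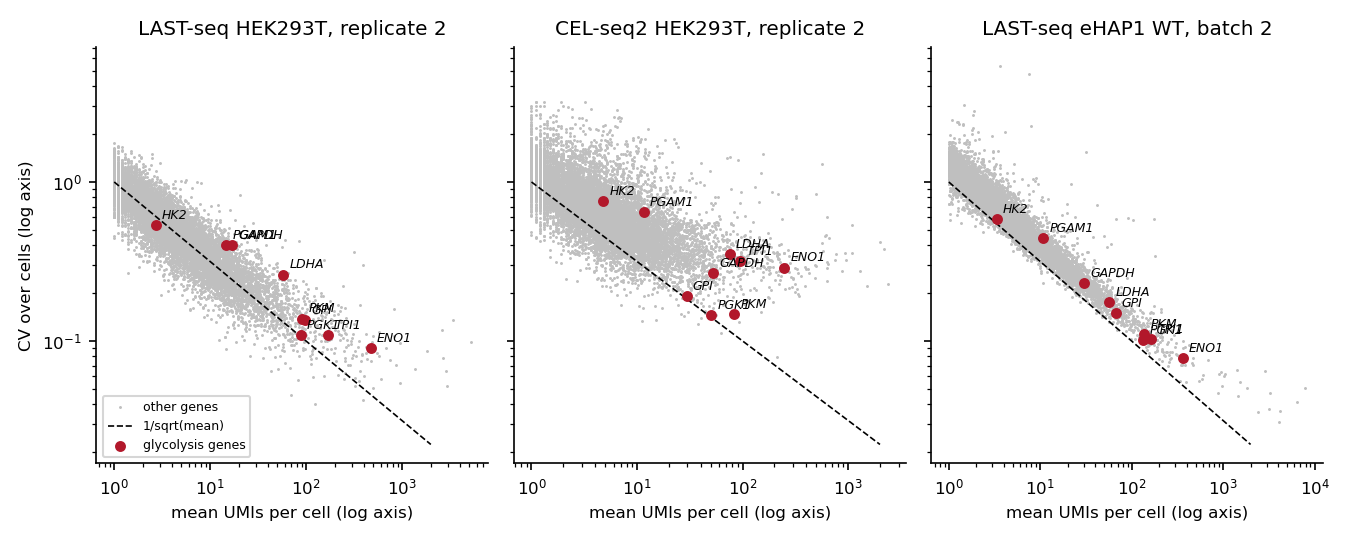
CV over cells of UMIs scaled to the median total against the mean UMIs per cell, both on log axes, for LAST-seq and CEL-seq2 HEK293T cells of replicate 2 (10 cells each) and eHAP1 WT cells of batch 2 (75 cells), with genes in grey, the glycolysis genes in red and the line of Poisson counting dashed. ENO1 has a CV of 0.0900 in LAST-seq, 0.289 in CEL-seq2 and 0.0783 in eHAP1 WT cells.

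Co-variation of the members over cells asks whether cells with more of one enzyme's RNA hold more of the others. Spearman's rho of CPM was computed for all 45 pairs in each eHAP1 batch. The median over pairs was 0.0516 in WT batch 1 (73 cells), 0.00336 in WT batch 2 (75 cells), 0.0288 in KO batch 1 (77 cells) and 0.0252 in KO batch 2 (76 cells). The median over all pairs of genes with a mean of at least 2 UMIs was 0.000586, 0.00464, 0.000881 and 0.00174. No minimum was set for the members. Over the pairs of members with such a mean, the median was 0.0659, -0.000142, 0.0167 and 0.0265 in the same batches. Single pairs ranged from -0.288 to 0.319 over the batches, and 31, 23, 29 and 28 of the 45 pairs were above 0. The highest value was that of ALDOA and TPI1 in WT batch 1, where ALDOA held 6 UMIs over the 73 cells. In WT batch 2 the same pair had a rho of -0.253. ALDOA held between 3 and 11 UMIs in a batch, and its pairs are among the 45. TPI1 and PGAM1 had the highest mean rho over the 4 batches, at 0.157, followed by LDHA and PGAM1 at 0.149, both above 0 in every batch, and PKM and GPI had the lowest at -0.120. The cells of a batch share library and normalization but differ in depth, and weak correlations of sparse counts are no finding.

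**Figure D4:**
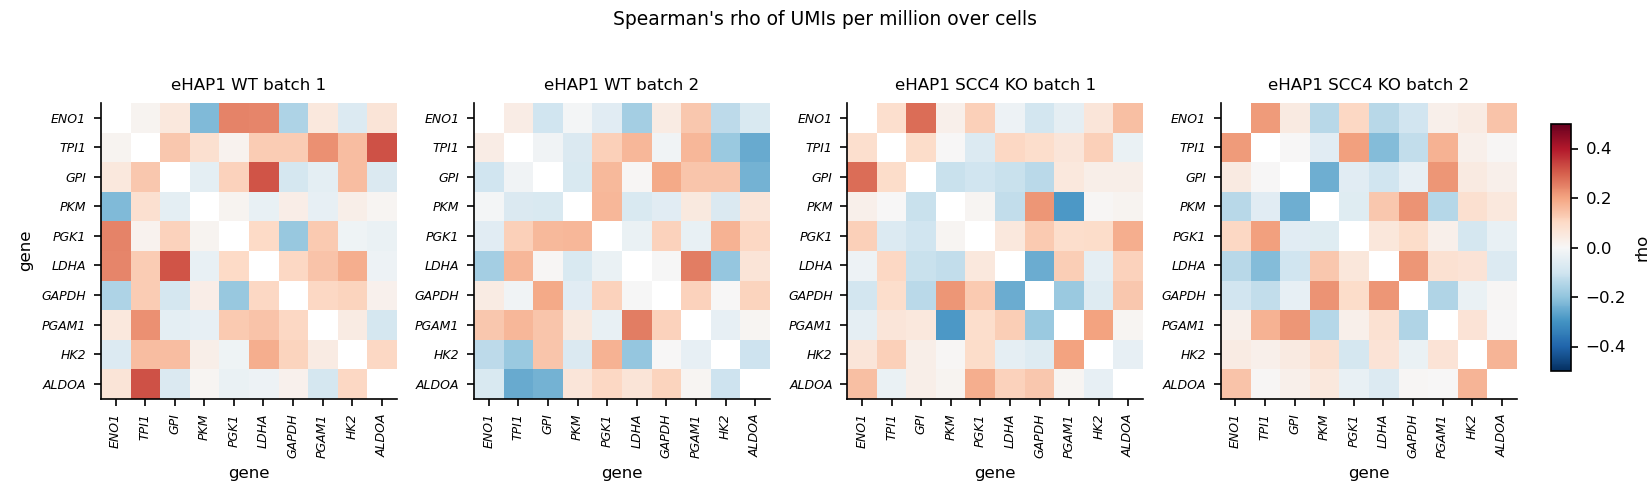
Spearman's rho between pairs of glycolysis genes over the cells of each eHAP1 batch, from CPM, with the scale from -0.5 to 0.5 in colour. The strongest pair of a batch differs between the 4 panels, and values range from -0.288 to 0.319. The highest value is that of ALDOA and TPI1 in WT batch 1, where ALDOA held 6 UMIs.

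Without scaling, the median rho of the members rose to between 0.499 and 0.655, beside 0.180 to 0.341 over all genes. Total UMIs also differ between the cells, and their part was not tested. The genes most like the members' summed level over the WT batches, among 5945 genes with at least 2 UMIs in both, were ATXN2, RPS6, PAXX, CAMK2G and SF3B6, with mean rho from 0.290 to 0.325. In KO cells ATXN2 had rho of -0.0174 in batch 1 and 0.274 in batch 2, and RPS6 of -0.171 and 0.140. LDHB held rank 104 of the 5945, with a mean rho of 0.190, as the first of the isozymes. The summed level itself had rho of 0.304 and 0.191 with the total UMIs of the cell in WT and of -0.0758 and 0.0987 in KO cells.

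HEK293T and eHAP1 WT cells were compared as 2 libraries against 1. Among genes with at least 200 UMIs, most agreed within sampling noise between the 2 eHAP1 batches of a genotype. Their median chi-square between batches was 0.704 in WT and 0.594 in KO cells. It was 0.578 to 0.624 for odd against even cells within a batch and 3.10 for the HEK293T LAST-seq replicates. Genes with fewer UMIs were not covered, and some differed more. EPAS1 had 22 UMIs in WT batch 1 and none in WT batch 2. VHL was at 8.82 and 3.90 CPM in the WT batches and at 1.71 and 6.59 in the KO batches. The part of the batch adjustment named in the methods, which the deposited UMIs may carry, was not tested for this agreement. Each genotype was counted as 1 sample, and the single eHAP1 library was assumed to vary like the HEK293T ones. Cell line, medium, the 10-deacetylbaccatin-III of the eHAP1 culture, sort, number of cells pooled per library and sequencing depth differed together and cannot be told apart. Of the markers of HEK293T, NEFL was at 29.5 and 9.94 CPM in HEK293T and at 0 in eHAP1 WT, whereas the kidney lineage genes PAX2 (0 and 1.32 against 14.9 and 16.0) and LHX1 (0 and 7.95 against 7.60 and 8.78) were not higher in HEK293T and NEFM was at 0 in both. CD34, a blood lineage gene, was at 5.61 and 7.29 in HEK293T and at 0 in eHAP1 WT, and PTPRC, HBG1 and HBG2, genes of blood cells, were at 0 in eHAP1 WT.

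PGK1 was at 498 and 580 CPM in the HEK293T libraries and at 803 and 819 in the eHAP1 WT batches. PKM was at 606 and 605 against 825 and 840. In both genes the HEK293T libraries and the eHAP1 WT batches did not overlap in CPM, which also held for the other members tested. PGK1 was lower in HEK293T by 0.85 ± 0.23 on the log2 scale (SE, edgeR, adjusted p = 0.00651) and PKM by 0.71 ± 0.23 (adjusted p = 0.0231). These were the 2 members called of 9 tested, where 19.0% of the 11523 genes were called and 11.6% were called as lower in HEK293T. GAPDH (146 and 111 against 183 and 183) differed by -0.75 ± 0.31 with an adjusted p of 0.0835, and GPI (741 and 644 against 398 and 406) by 0.54 ± 0.25 with an adjusted p of 0.136. ENO1 stood at 2880 and 3114 against 2147 and 2196, with a log2 difference of 0.21 ± 0.18. TPI1, LDHA and PGAM1 had differences of -0.10 ± 0.22, 0.01 ± 0.26 and 0.10 ± 0.39, and HK2 of -0.43 ± 0.59. PKM was not called with DESeq2 or with scaling to total UMIs, which moved the median of all genes by 0.25, called ENO1 and GPI as higher in HEK293T and moved the split of all calls from 859 higher and 1333 lower to 1344 higher and 1090 lower. With the batches as 2 libraries, 4 members were called, and 6 and 5 without HEK293T replicate 1 and replicate 2.

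Larger differences were seen among the related genes. ENO2, the neuronal type of enolase, was at 2.11 and 7.29 CPM in HEK293T and at 59.3 and 57.6 in eHAP1 WT, with a log2 difference of -3.87 ± 0.60 (adjusted p = 1.98e-06). PFKP, the platelet type of phosphofructokinase, differed by -2.12 ± 0.51. LDHC, a lactate dehydrogenase of the testis, held 21.1 and 1.32 CPM in HEK293T and no UMI in eHAP1. Of 10 isozymes and remaining enzymes tested, 1 was higher and 2 were lower in HEK293T. Among 9 transporters, SLC16A3, the lactate exporter MCT4, was at 1.40 and 0 in HEK293T and at 39.4 and 34.6 in eHAP1 WT, SLC2A6 was lower in HEK293T by 2.57 ± 0.81, and SLC16A1 was higher by 1.57 ± 0.47. PFKFB3, which makes the activator fructose-2,6-bisphosphate, was lower in HEK293T by 2.56 ± 0.50. TKT was the 1 of 7 pentose phosphate genes called, lower in HEK293T by 0.98 ± 0.24, and G6PC3 the 1 of 3 in gluconeogenesis, lower by 1.52 ± 0.38. Of 10 genes of pyruvate entry, PDHB and DLD were higher by 1.67 ± 0.40 and 0.87 ± 0.32 and PDHA1 was lower by 0.87 ± 0.27. Of 7 regulators, MYC and MLXIPL were called as higher in HEK293T. MYC was at 18.9 and 23.8 in HEK293T and at 0.543 and 0.325 in eHAP1 WT, and MLXIPL was at 9.83 and 11.3 against 0 and 0.0813. Of 15 genes of the hypoxia response tested, EPAS1 and NDRG1 were higher and BNIP3L and BNIP3 were lower in HEK293T.

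The SCC4 knockout asks what the loss of the cohesin loader does to gene expression. SCC4 (MAU2), the targeted gene, was at 44.2 and 41.2 CPM in the WT batches and at 9.17 and 14.5 in the KO batches. Its KO to WT ratio differed between the batches, at 0.207 (0.154 to 0.274) and 0.351 (0.293 to 0.419). WT and KO were taken as 1 library each, so there is no test, and intervals cover counting error only. LDHA had the largest ratio of the members, at 339 and 345 CPM in the WT batches and at 491 and 492 in the KO batches, a ratio of 1.45 (95% interval 1.37 to 1.53) in batch 1 and of 1.43 (1.37 to 1.48) in batch 2.

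GPI followed with ratios of 1.40 and 1.38, TPI1 with 1.34 and 1.32, GAPDH with 1.31 and 1.31, ENO1 with 1.20 and 1.18, PGAM1 with 1.18 and 1.17, PGK1 with 1.13 and 1.11 and PKM with 1.08 and 1.06. The counting intervals of these 8 members lay above 1 in both batches with scaling to total UMIs, where the lower limits in batch 1 were 1.04 for both PKM and PGAM1. In the planned edgeR fit on batch sums, the median log2 difference of the members was 0.25 with this scaling and 0.18 with TMM normalization. No intervals were made with TMM. PGAM4, which shares counts with PGAM1, went from 91 to 38 UMIs in batch 1 and from 152 to 72 in batch 2, and the pair together had ratios of 1.07 (0.951 to 1.21) and 1.06 (0.970 to 1.16), whose intervals include 1. GAPDH and its pseudogenes together were at 316 CPM in WT and 362 in KO cells in batch 1, and at 300 and 372 in batch 2. This is a smaller relative rise in each batch than for GAPDH alone, and the share on pseudogenes was lower in KO cells. HK2 had ratios of 0.861 (0.670 to 1.10) and 1.01 (0.840 to 1.21). ALDOA, with 9 UMIs in all WT cells and 14 in all KO cells, did not pass the filter of 0.1 UMI per cell. None of the 9 members in the filter was past 2-fold in both batches, where 11.2% of 15574 genes were. For 8 of the 9 the KO level was higher in both batches, as for 40.5% of all genes. The median log2 ratio was 0.25 over the members and 0.05 over all genes.

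**Figure D5:**
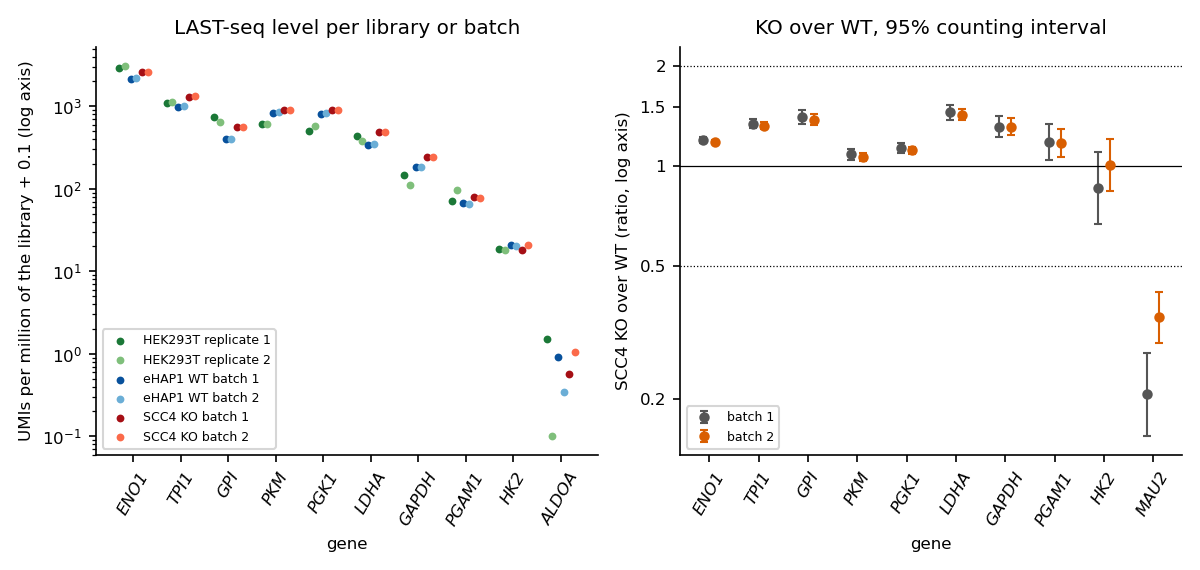
Left, CPM with 0.1 added (log axis) of each glycolysis gene in the LAST-seq HEK293T replicates and the eHAP1 WT and SCC4 KO batches. Right, the ratio of SCC4 KO to WT (log axis) in each batch with its exact 95% counting interval and dotted lines at 2-fold, where LDHA lies at 1.45 and 1.43 and MAU2, the targeted gene, at 0.207 and 0.351.

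The summed level of the members was also taken in each cell. In WT it ranged from 4709 to 6516 CPM (median 5656) in batch 1 and from 4604 to 6395 (median 5818) in batch 2. In KO it ranged from 6241 to 8189 (median 7039) and from 6266 to 7935 (median 7085), so the ranges overlapped. LDHA held 22.7% and 22.6% of the UMIs on LDHA and LDHB in WT and 27.1% and 27.0% in KO cells. HK2 held 45.4% and 41.7% of the UMIs on HK2 and HK1 in WT and 33% and 36.5% in KO cells, with exact intervals from 37.8 to 50.9 in WT and from 28.1 to 40.3 in KO.

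Of the 11 isozymes and remaining enzymes in the filter, 8 were higher and 2 were lower in both batches, and none was past 2-fold in both with 0.5 UMI added. PGAM4 was at that limit, with ratios of 0.478 and 0.499 when nothing is added. Among the 9 transporters, SLC2A6 was past 2-fold, at 20.6 CPM in WT and 7.84 in KO cells, a ratio of 0.381 (0.312 to 0.462). PFKFB1 had 69 UMIs in WT cells and none in KO cells. Of 17 genes of the hypoxia response outside glycolysis, 4 were higher past 2-fold and 1 was lower, where 928 and 809 of all 15574 genes were. By any size, 8 of the 17 were higher in both batches and 3 were lower. ADM, which encodes the vasodilator adrenomedullin, was at 9.25 in WT and 53.3 in KO cells (ratio 5.76, 4.91 to 6.78), EGLN3, a prolyl hydroxylase that acts on HIF, had a ratio of 3.99 (2.67 to 6.15), NDRG1 of 4.60 (2.84 to 7.80) and ANKRD37 of 7.33 (2.55 to 28.8), the last from 4 UMIs in WT and 27 in KO cells with an interval of 0.641 to 271 in batch 1, while DDIT4 had 0.393 (0.264 to 0.575). EGLN3 and NDRG1 held 31 and 21 UMIs in WT cells. The filter took the mean over WT and KO cells together. ANKRD37 therefore passed it only through the KO cells and PFKFB1 only through the WT cells, as other genes of the 15574 could. The genes of this list with the most UMIs in WT, HIF1A, BNIP3, BNIP3L, MXI1 and VEGFA, had ratios of 1.20, 1.03, 0.907, 1.01 and 0.647. No gene of the pentose phosphate pathway, of gluconeogenesis or of pyruvate entry into mitochondria, and none of the 5 regulators in the filter, was past 2-fold. The KO cells were grown as clones from single cells, and the number of clones is not given, so the knockout and the clone cannot be told apart.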

How the data were processed

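The deposited tables hold whole-number counts per gene and well, which the authors made as UMI counts for LAST-seq and CEL-seq2 and as read counts for SMART-seq (and for some UMI libraries beside the UMIs). Per the methods, reads were demultiplexed (bcl2fastq 2.20 in the submitters' notes), trimmed, subsampled to equal depth between assays and counted over exons by zUMIs on GRCh38 with GENCODE release 33. Poorly covered eHAP1 wells were removed, and whether the eHAP1 UMIs carry the batch adjustment of the methods is not given in the sources used here. Here, Ensembl identifiers were matched to GENCODE release 44, and the 10 genes and the related lists were chosen with earlier results of these data known.

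Counts were summed per library and tested with edgeR 4.0.16 (R 4.3.3, quasi-likelihood, TMM, at least 10 counts by its filter), with DESeq2 1.42.0 as an alternative. The eHAP1 batches of a genotype agreed within sampling noise for most genes and were counted as 1 library, which departs from the planned fit, so SCC4 KO and WT were compared by ratios with exact 95% intervals and a call at 2-fold in both batches (at least 0.1 UMI per cell, 0.5 UMI added). Named genes were the 10 members, at most 4 called genes of each related list with the largest change, the isozyme of a member with the most UMIs, MAU2, the leading pseudogenes and the 5 genes most like the members' sum. Other genes (the isozymes at 0, PGAM4, the hypoxia genes with the most UMIs and the cell line markers) were named after their values were seen. Intervals cover counting error only. The minimum mean was 1 UMI for noise and 2 UMIs for the co-variation of all genes, and the 45 pairs of members had no minimum.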

Additional observations from a re-analysis of the deposited data

How the results depend on the processing

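Of the values compared under other settings, 35 main ones moved by less than their limit and 20 moved by more, and among the members 151 kept their direction and call, 15 became called, 9 lost the call, 11 reversed and 9 counts moved. The calls between LAST-seq and CEL-seq2 (2949) ranged from 961 to 2746 when 1 library was left out. Those between HEK293T and eHAP1 WT (2192) were 1390 with DESeq2, 4407 with the batches as 2 libraries (chosen after seeing the data) and 2193 to 6349 with 1 of those 4 libraries left out. The planned edgeR fit of SCC4 KO against WT on batch sums, whose p-values hold no replicate error, called 4437 genes, 6875 without a filter and 3175 to 4455 without 1 batch. With the batch number as a replicate block it called 4800 genes, and 4 members with and without the block. Scaling to total UMIs called 8 members, and leaving out a batch 1 to 7. Genes past 2-fold in both batches (1737) were 550 with at least 1 UMI per cell and 3902 to 4039 in single batches.

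The summed level in SMART-seq lysate, 14376, was 15764 with pseudogenes added. The median excess CV2 of the members, averaged over libraries, was 0.00380 in LAST-seq, 0.0691 without scaling and 0.0555 from reads. It was 0.1000 in CEL-seq2 and 0.151 without scaling. In eHAP1 WT it was 0.00273, 0.409 without scaling and 0.00435 in cells with at least 100000 UMIs, and in KO cells 0.00356, 0.0603 and 0.00403. The mean of the median rho was 0.0273, 0.566 without scaling and 0.0690 in cells with at least 100000 UMIs (chosen after seeing the data). The causes were not tested.

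Log2 differences that reversed were small. Between LAST-seq and CEL-seq2, PKM was at -0.18 and LDHA at -0.026 with scaling to total UMIs. With 1 library left out, LDHA ranged from -0.12 to 0.88 and HK2 from -0.65 to 0.026. Between the lines, TPI1 was at 0.15 with scaling to total UMIs, and LDHA at -0.027 without a filter and -0.017 in cells with at least 100000 UMIs. With 1 library left out, TPI1 ranged from -0.13 to 0.0033, PGAM1 from -0.012 to 0.34 and LDHA from -0.050 to 0.22. HK2 and ALDOA held a few UMIs per cell or fewer, so their values carry a large counting error.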
